A study of Homo sapiens with 27 samples.

Results

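The 9 genes described here code for proteins of the lipid droplet surface and for enzymes and secreted factors switched on by fatty acids: ANGPTL4, PLIN2, PLIN3, PLIN4, PLIN5, PDK4, CPT1A, HILPDA and ACADVL. They were found by symbol among the 20089 symbols listed in all 3 count tables, and all 9 passed the filter on low counts in every cell line. The set was chosen by the values of ANGPTL4 and PLIN2, which were lower than control in all 6 contrasts, so the changes of these 2 genes against control are given as a description without a test. The question put to the other 7 genes was whether they moved with them.

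RNA was sequenced from the prostate cancer lines 22Rv1, DU145 and PC3, in which CRISPR guides had targeted RIPK2, the adaptor kinase of the peptidoglycan sensors NOD1 and NOD2, or served as a control. Each line gave 3 libraries with control gRNA 1, labelled WT, and 3 from each of 2 populations labelled RIPK2 knockout. One population, here called that of the first guide, carried gRNA 2 in DU145 and PC3 and gRNA 1 in 22Rv1, and the other carried gRNA 10 throughout. Clonal or pooled origin of the cells is not given in the sources used here. Nothing in the labels says that replicates came from separate cultures, so p-values measure only the spread between these libraries, which may be technical. In bulk RNA, fewer cells of a type and less RNA per cell cannot be told apart.

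Peroxisome proliferator-activated receptors (PPARs) are nuclear receptors that bind fatty acids and, paired with a retinoid X receptor (RXR), activate genes of fat storage and fat burning. ANGPTL4, PLIN2, PDK4 and CPT1A are among their best known targets, and HILPDA, ANGPTL4 and PLIN2 are also raised by hypoxia through HIF, which binds a short core sequence. Perilipins coat the lipid droplet and hold lipases off its triglyceride core, while CPT1A and ACADVL stand at the entry of mitochondrial fatty acid oxidation.

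The promoters of ANGPTL4 and PLIN2 are printed because these are the genes that were lower in all 6 contrasts, and because both a PPAR and a HIF element could be looked for in them. Each window runs from 250 bases before to 50 bases after the RefSeq start on GRCh38.p14, read along the gene's strand: chr19:8363905-8364204 on the plus strand for ANGPTL4 and chr9:19127443-19127742 on the minus strand for PLIN2. Capitals mark matches to the hypoxia core ACGTG on either strand.
ANGPTL4: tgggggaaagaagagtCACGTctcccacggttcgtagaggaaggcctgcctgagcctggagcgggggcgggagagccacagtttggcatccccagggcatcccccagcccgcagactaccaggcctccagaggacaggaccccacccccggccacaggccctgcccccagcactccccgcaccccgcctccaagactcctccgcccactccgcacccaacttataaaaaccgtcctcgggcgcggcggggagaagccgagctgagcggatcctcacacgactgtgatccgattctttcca
PLIN2: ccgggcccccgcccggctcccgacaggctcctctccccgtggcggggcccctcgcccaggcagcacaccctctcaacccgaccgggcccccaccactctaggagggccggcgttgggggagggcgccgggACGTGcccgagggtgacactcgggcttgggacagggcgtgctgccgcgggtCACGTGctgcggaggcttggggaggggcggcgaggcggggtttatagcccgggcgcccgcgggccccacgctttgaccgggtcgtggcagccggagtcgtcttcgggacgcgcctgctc
The ANGPTL4 window held 1 core, on the opposite strand 234 bases before the start. The PLIN2 window held 3, at 120, 69 and 68 bases before the start, and the last pair overlap as the 2 strands of CACGTG. Of the 9 genes, 7 were matched to a RefSeq promoter, and the windows of PLIN3, PLIN4, PLIN5, PDK4 and CPT1A held no ACGTG. Over all 35116 promoters of the table, 21.4% held at least 1 ACGTG. The related GCGTG was not searched, and windows without ACGTG, such as those of PLIN3 and CPT1A, hold it. These matches therefore do not set ANGPTL4 and PLIN2 apart for the wider core. The single receptor element AGGTCA (13.8% of promoters) and the spaced repeat AGGTCANAGGTCA with up to 2 mismatches (2.97%) were searched on both strands and matched none of the 7 windows. No match says only that these letters are not in this window. GC content was 66.3% for ANGPTL4 and 76.7% for PLIN2, against a median of 58.7% over all promoters.

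Library totals ran from 17958558 to 20650819 counts, and levels are given as CPM (counts scaled to a common TMM-adjusted library size), in which 3 counts correspond to 0.144 to 0.178 CPM. RIPK2 mRNA was lower than control with both guides in each line, with log2 fold changes of -0.94 and -1.63 in 22Rv1, -1.84 and -0.29 in DU145 and -1.55 and -1.15 in PC3, first guide first. With DU145 gRNA 10 it lay at 36.4, 33.4 and 34.4 CPM against 39.4, 44.4 and 43.5 in control, which missed the threshold (adjusted p = 0.0614, edgeR quasi-likelihood test). Among replicates, 2 libraries were unlike the others of their group: replicate 3 of 22Rv1 gRNA 1, with 16.65% of its counts in mitochondrially encoded genes against 2.10% and 1.92% in the others, and replicate 3 of DU145 gRNA 2, with 2.89% against 1.75% and 2.12%. The members' values without them are given beside the results or together further on. Biological variation between replicates (edgeR's common coefficient) was 3.55% in PC3, 12.3% in DU145 and 14.2% in 22Rv1, so a change of the same size had a smaller error in PC3. Summed levels of 6 prostate epithelial markers lay at 1292 to 1502 CPM in 22Rv1, 794 to 2825 in DU145 and 727 to 1781 in PC3, carried by EPCAM, KRT8 and KRT18. KLK3, which marks luminal prostate cells, was at 0 in the DU145 and PC3 controls. The adipocyte markers PLIN1 and CIDEC together stayed at 0.103 to 0.178 CPM in 22Rv1, 0 to 0.549 in DU145 and 1.25 to 4.18 in PC3. ADIPOQ and LEP were looked for as well but were not listed in the count tables. Leukocyte markers summed to at most 1.49, 3.37 and 1.38 CPM in the 3 lines. Of the fibroblast markers COL1A1 alone passed 1 CPM in any group, and their sum moved with the guides. It went from 7.79 to 9.96 CPM in 22Rv1 control to 11.4 to 29.1 with gRNA 1 and 21.8 to 24.2 with gRNA 10, from 13.2 to 13.9 in DU145 control to 5.53 to 12.1 with gRNA 2 and 24.0 to 30.0 with gRNA 10, and from 26.9 to 28.4 in PC3 control to 44.6 to 52.6 with gRNA 2 and 51.0 to 56.0 with gRNA 10. Of the hepatocyte markers ALB, the liver's plasma protein, was high in 22Rv1 only, at 105 CPM in control, 101 with gRNA 1 and 2044 with gRNA 10, with APOA1 and TTR at most 0.294 and 5.31 there. The part of these other-cell markers in the results was not tested.

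In the control cells the 9 genes stood at very different levels, and the order changed with the line. Per kilobase of exon, ACADVL was among the 2 highest in each line, at 69.7 CPM per kb in 22Rv1, 121 in DU145 and 80.2 in PC3. PLIN3, the broadly expressed perilipin, stood next to it in DU145 (76.6) and just above it in PC3 (83.7) but lay at 11.8 in 22Rv1. ANGPTL4 and PDK4 followed ACADVL in 22Rv1, at 33.6 and 27.1 CPM per kb, and were far lower in DU145 (14.0 and 1.51) and PC3 (5.83 and 2.20). In 22Rv1 the order went on with PLIN3, CPT1A (7.73), HILPDA (7.65), PLIN5 (4.13), PLIN2 (3.80) and PLIN4 (2.99). ANGPTL4 and PDK4 lay within each other's spread there, as did CPT1A and HILPDA, and PLIN5 and PLIN2. In DU145 the order below ACADVL and PLIN3 was PLIN2 (19.5), ANGPTL4, CPT1A (9.53), HILPDA (5.43), PLIN4 (1.62), PDK4 and PLIN5 (0.651), where PLIN4 and PDK4 lay within each other's spread. In PC3 the order below PLIN3 and ACADVL was CPT1A (22.0), PLIN2 (20.2), ANGPTL4, HILPDA (5.67), PLIN4 (4.74), PDK4 and PLIN5 (0.114), where ANGPTL4 and HILPDA lay within each other's spread.

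Between control cells of different lines, 9 of 9 genes differed from 22Rv1 in DU145, 8 of 9 in PC3, and 7 of 9 differed between PC3 and DU145 (edgeR quasi-likelihood model of all 27 libraries, adjusted over 16322 genes). Most genes did: 75.9% of all genes tested differed between DU145 and 22Rv1, 80.5% between PC3 and 22Rv1 and 75.9% between PC3 and DU145. PLIN5 was lower than in 22Rv1, at log2 differences of -2.66 in DU145 and -5.01 in PC3, and so was PDK4, at -4.17 and -3.47. PLIN2 and PLIN3 went the other way, at 2.37 and 2.70 in DU145 and 2.56 and 2.97 in PC3 relative to 22Rv1. ANGPTL4 was lower in DU145 (-1.26) and PC3 (-2.38) than in 22Rv1. The differences that missed the threshold were HILPDA in PC3 against 22Rv1 (-0.28, 95% interval -0.66 to 0.10) and against DU145 (0.21, -0.17 to 0.59), and PLIN2 in PC3 against DU145 (0.20, 0.0030 to 0.39, adjusted p = 0.0608).

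ANGPTL4 (chr19:8363289-8374373, plus strand, GRCh38), a secreted protein that unfolds and inhibits lipoprotein lipase, was lower in every RIPK2 library than in any control library of its line. In 22Rv1 it stood at 89.7, 72.7 and 87.9 CPM in control, 19.9, 21.2 and 37.0 with gRNA 1 and 34.6, 32.5 and 32.7 with gRNA 10. The 3 groups were clear of each other except that gRNA 1 replicate 3, the library with the high mitochondrial share, lay above the gRNA 10 libraries. In DU145 the control values were 38.6, 31.7 and 34.0 CPM, those with gRNA 2 were 2.33, 1.75 and 6.52, and those with gRNA 10 were 4.73, 4.29 and 4.20. Again replicate 3 of the first guide was the highest of its group. In PC3 the gene lay at 15.4, 14.5 and 13.6 CPM in control, 7.14, 7.93 and 8.15 with gRNA 2 and 3.04, 3.18 and 2.50 with gRNA 10, in 3 separate ranges. The log2 fold changes against control, given as a description, were -1.68 ± 0.21 and -1.33 ± 0.20 (SE) in 22Rv1, -3.32 ± 0.35 and -2.98 ± 0.34 in DU145 and -0.90 ± 0.09 and -2.31 ± 0.11 in PC3, n = 3 libraries a group.

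The 2 guides gave different ANGPTL4 levels in PC3 only by the threshold used. There gRNA 2 left 2.66 times as much as gRNA 10 (log2 difference 1.41 ± 0.12, adjusted p = 1.38e-11, edgeR), and all 3 libraries of one guide lay above those of the other. In 22Rv1 the difference between gRNA 1 and gRNA 10 was -0.36 (95% interval -0.81 to 0.09, adjusted p = 0.199), and in DU145 that between gRNA 2 and gRNA 10 was -0.34 (-1.17 to 0.50, adjusted p = 0.502). Without replicate 3 of the first guide these became -0.71 (adjusted p = 0.000166) in 22Rv1 and -1.10 (adjusted p = 0.000260) in DU145, and the changes against control became -2.03 and -4.08.

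PLIN2 (chr9:19108375-19149290, minus strand), the perilipin found on droplets of nearly every cell, also lay below control in every RIPK2 library. In 22Rv1 the control held 19.0, 19.3 and 19.6 CPM, the gRNA 1 cells 4.10, 3.62 and 4.63, and the gRNA 10 cells 9.91, 10.9 and 10.4. The 3 groups formed 3 tight and separate ranges. In DU145 the values were 102, 102 and 94.5 CPM in control, 69.0, 56.1 and 81.1 with gRNA 2 and 56.9, 51.6 and 49.4 with gRNA 10. In PC3 they were 101, 101 and 105 in control, 66.0, 63.8 and 65.6 with gRNA 2 and 65.7, 67.3 and 72.8 with gRNA 10. In both of these lines the 2 guides' libraries met or overlapped, well below control. The log2 fold changes, as a description, were -2.23 ± 0.12 and -0.89 ± 0.11 in 22Rv1, -0.53 ± 0.12 and -0.92 ± 0.12 in DU145 and -0.66 ± 0.04 and -0.58 ± 0.04 in PC3. Genes within 5 Mb of PLIN2 had median log2 fold changes of -0.29 and -0.28 in 22Rv1 (26 genes). The medians were 0.08 and 0.23 in DU145 (27 genes) and -0.06 and -0.26 in PC3 (29 genes), first guide first. The part of that stretch in the PLIN2 values was not tested.

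Between guides, PLIN2 was lower with gRNA 1 than with gRNA 10 in 22Rv1 (log2 difference -1.34 ± 0.12, adjusted p = 1.97e-05, edgeR). In DU145 it was higher with gRNA 2 than with gRNA 10 (0.38 ± 0.12, adjusted p = 0.0315), a call lost under 6 of 16 alternatives. In PC3 the difference was -0.07 (95% interval -0.17 to 0.02, adjusted p = 0.143). Less PLIN2 was left by gRNA 1 in 22Rv1 and by gRNA 10 in DU145, and in PC3, where gRNA 10 left less ANGPTL4, PLIN2 gave no called difference.

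**Figure D1:**
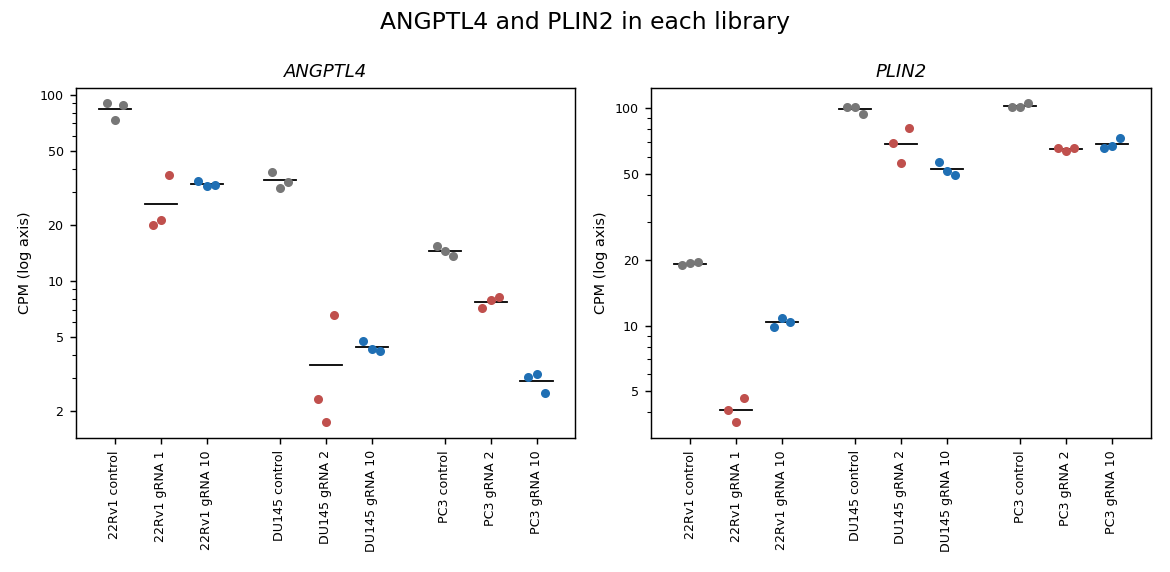
CPM on a log axis of ANGPTL4 (left) and PLIN2 (right) in each of the 27 libraries, with points for libraries, bars for the mean of 3, grey for the control guide, red for the first RIPK2 guide and blue for gRNA 10. Every red and blue point lies below the grey points of its line, and the 2 guides are farthest apart for PLIN2 in 22Rv1 (4.12 against 10.4 CPM) and for ANGPTL4 in PC3 (7.74 against 2.91 CPM).

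None of the other 7 genes moved in one direction in all 6 contrasts. Few genes of any kind were lower in each: 385 of the 12800 tested in all 6, whatever the p. Finding none among 7 therefore says little about these genes. In 22Rv1 with gRNA 1, 4 of 7 were higher than control and 3 lower at an adjusted p below 0.05, where 25.6% of all genes tested were higher and 22.9% lower. With 22Rv1 gRNA 10, 2 were higher and 0 lower (20.0% and 20.6% of all genes). In DU145, gRNA 2 gave 0 higher and 4 lower (17.1% and 17.0%), and gRNA 10 gave 0 higher and 2 lower (20.2% and 19.8%). In PC3, gRNA 2 gave 2 higher and 3 lower (32.1% and 31.5%), and gRNA 10 gave 4 higher and 2 lower (37.9% and 35.6%). The median log2 fold change of the 7 was 0.34 and 0.27 in 22Rv1, -0.51 and -0.24 in DU145 and -0.06 and 0.54 in PC3, beside medians over all genes tested of 0.024, -5.6e-06, 0.014, 0.00092, 0.0059 and 0.0084. All calls are from edgeR's quasi-likelihood test. The 2 guides of a line share their control libraries, so the pairs of contrasts are not independent.

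Some of the genes also differed between the guides themselves. Of all 9 genes, 7 differed between guides in 22Rv1, 2 in DU145 and 6 in PC3, where 35.6%, 38.8% and 73.4% of all genes tested did.

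**Figure D2:**
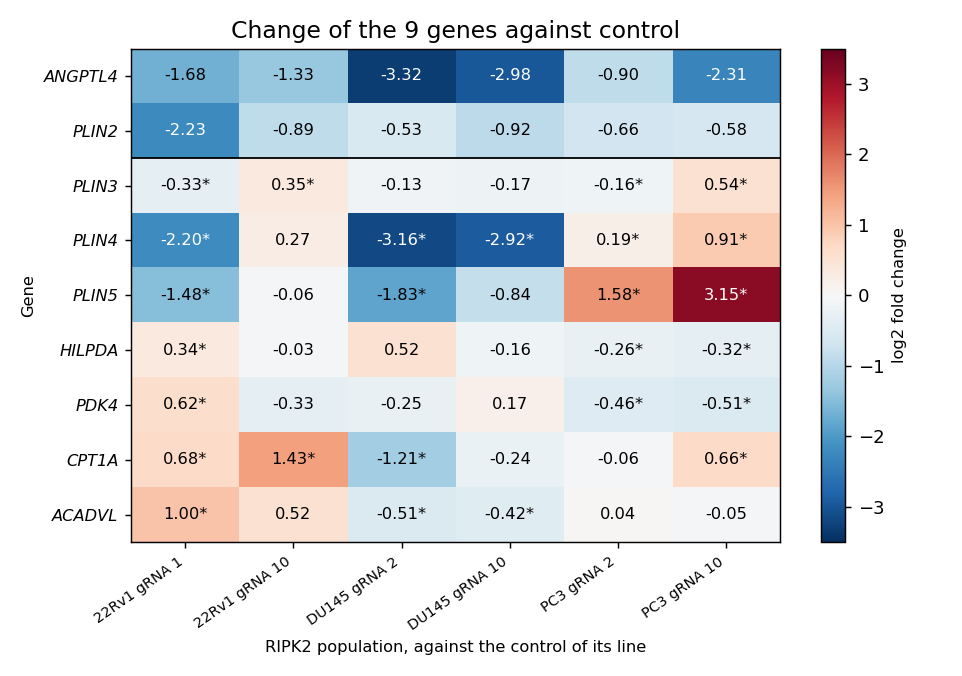
Log2 fold change of the 9 genes (rows) with each RIPK2 guide against the control of its line (columns), coloured from blue (lower) to red (higher), with an asterisk where one of the 7 tested genes passed an adjusted p of 0.05. The upper 2 rows, ANGPTL4 and PLIN2, chose the set and carry no test, and they are blue throughout, while each row below them holds both signs.

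PLIN3 (chr19:4838341-4867768, minus strand), which coats small nascent droplets and cycles between cytosol and droplet, changed little and in both directions. In PC3 it lay at 237, 232 and 237 CPM in control, 209, 210 and 212 with gRNA 2 and 326, 339 and 359 with gRNA 10. The 3 ranges were separate, with gRNA 2 below and gRNA 10 above control. The log2 fold changes were -0.16 ± 0.04 (adjusted p = 0.000348, edgeR) and 0.54 ± 0.04 (adjusted p = 3.95e-14). In 22Rv1 the values were 36.4, 27.2 and 36.1 CPM in control, 25.7, 25.7 and 28.2 with gRNA 1 and 44.5, 41.1 and 41.3 with gRNA 10. The gRNA 1 libraries met the lowest control, and the gRNA 10 libraries lay above all 3. Its changes there were -0.33 (adjusted p = 0.0455) and 0.35 (adjusted p = 0.0386), calls lost under 9 and 6 of 16 alternatives. In DU145 it ranged from 173 to 232 CPM over all 9 libraries, and neither guide gave a call (-0.13, 95% interval -0.39 to 0.12, and -0.17, -0.42 to 0.08).

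PLIN4 and PLIN5 gave the largest tested changes, and their direction depended on the line. PLIN4 codes for a very long perilipin of adipocytes and muscle, and PLIN5 for the perilipin of oxidative tissues that ties droplets to mitochondria. The genes are neighbours on chromosome 19 (GRCh38), PLIN4 at chr19:4502180-4518465 and PLIN5 at chr19:4522531-4535224, both on the minus strand and 4065 bases apart. PLIN3 lies 303116 bases further on, and ANGPTL4 another 3495520.

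In DU145, PLIN4 stood at 10.8, 10.1 and 10.7 CPM in control, 1.79, 1.51 and 0.166 with gRNA 2 and 1.31, 1.40 and 1.45 with gRNA 10. Both guides left it far below control, and the value of 0.166 in gRNA 2 replicate 3 is 3 counts. The log2 fold changes were -3.16 ± 0.40 (adjusted p = 0.000326, edgeR) and -2.92 ± 0.40 (adjusted p = 0.000261), and without gRNA 2 replicate 3 the first was -2.67 (adjusted p = 1.13e-08). In 22Rv1 it stood at 17.9, 18.1 and 22.4 CPM in control, 2.87, 3.40 and 6.48 with gRNA 1 and 24.1, 22.2 and 23.9 with gRNA 10. It fell with gRNA 1 alone by the threshold (-2.20 ± 0.24, adjusted p = 4.31e-05), while gRNA 10 gave 0.27 (95% interval -0.22 to 0.75, adjusted p = 0.358), and the 2 guides differed (-2.47 ± 0.24, adjusted p = 3.03e-05). Without 22Rv1 gRNA 1 replicate 3 the gRNA 10 value was 0.27 with an adjusted p of 0.0354. In PC3 the values rose, from 30.6, 30.0 and 31.8 CPM in control to 34.1, 34.9 and 36.7 with gRNA 2 and 63.4, 56.1 and 54.4 with gRNA 10. These were changes of 0.19 ± 0.06 (adjusted p = 0.00586) and 0.91 ± 0.06 (adjusted p = 4.01e-15), in ranges that did not meet.

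PLIN5 was also lower than control with 22Rv1 gRNA 1 and DU145 gRNA 2 and higher with both PC3 guides. In 22Rv1 it stood at 17.9, 19.3 and 22.4 CPM in control, 4.68, 4.75 and 12.0 with gRNA 1 and 20.4, 17.2 and 19.6 with gRNA 10. It fell with gRNA 1 (-1.48 ± 0.30, adjusted p = 0.00237, edgeR), by -2.08 without replicate 3, and overlapped control with gRNA 10 (-0.06, 95% interval -0.69 to 0.57). In DU145 the control held 3.12, 3.16 and 3.12 CPM, the gRNA 2 cells 1.09, 1.31 and 0.166, and the gRNA 10 cells 1.61, 1.45 and 2.20. All RIPK2 libraries lay below control, and the call was made for gRNA 2 (-1.83 ± 0.41, adjusted p = 0.00710) and missed for gRNA 10 (-0.84 ± 0.38, adjusted p = 0.101). Without DU145 gRNA 2 replicate 3 the gRNA 10 value was -0.84 with an adjusted p of 0.000994. In PC3 it went from 0.699, 0.398 and 0.546 CPM in control, or 14, 8 and 11 counts, to 1.72, 1.38 and 1.83 with gRNA 2 and 5.17, 4.62 and 4.90 with gRNA 10. The 3 ranges were separate, with rises of 1.58 ± 0.26 (adjusted p = 4.99e-06) and 3.15 ± 0.20 (adjusted p = 1.18e-14), from a control level near the bottom of the measured range.

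Over the 27 libraries, with each line's mean removed, log2 CPM of PLIN4 and PLIN5 correlated at r = 0.788, and at 0.968, 0.898 and 0.938 within 22Rv1, DU145 and PC3. The points share guides and libraries, so this is a description. The 2 genes had the same count in 3 of 27 libraries, and whether these neighbours share reads was not tested. PLIN5 overlaps AC011498.4 on its own strand and PLIN4 overlaps HDGFL2 on the other. The strand setting of the counting is not given in the sources used here, and reads of overlapping genes cannot be told apart. The same holds for ANGPTL4 with RAB11B-AS1, PLIN3 with AC027319.1, HILPDA with AC010655.4 and AC010655.2, and ACADVL with DLG4 and MIR324.

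The knockout effect, the mean of both guides minus control, was tested for a difference between lines in the model of all libraries. In DU145 it includes the gRNA 10 population, in which the fall of RIPK2 mRNA missed the threshold, and RIPK2 protein was not measured here. For PLIN4 it differed between each pair of lines, by 3.57 ± 0.29 in PC3 against DU145 (adjusted p = 3.14e-10), 1.50 ± 0.25 in PC3 against 22Rv1 (adjusted p = 2.29e-05) and -2.07 ± 0.30 in DU145 against 22Rv1 (adjusted p = 3.90e-06). The mean covers guides that differed for PLIN4 in 22Rv1, so each guide was also taken alone, an alternative chosen after seeing the data. With the first guides alone PC3 against 22Rv1 gave 2.40 (adjusted p = 4.89e-07, edgeR) and DU145 against 22Rv1 -0.93 (adjusted p = 0.0530), and with gRNA 10 alone they gave 0.61 (adjusted p = 0.0776) and -3.20 (adjusted p = 4.35e-08). The PC3 against DU145 difference was 3.34 (adjusted p = 4.71e-08) and 3.81 (adjusted p = 1.11e-09). For PLIN5 it differed in PC3 from DU145 (3.68 ± 0.49, adjusted p = 1.26e-06) and from 22Rv1 (3.12 ± 0.44, adjusted p = 2.23e-06), and DU145 against 22Rv1 gave -0.56 (95% interval -1.33 to 0.21). Among the 7 genes, 3 differed in this effect between DU145 and 22Rv1, 5 between PC3 and 22Rv1 and 6 between PC3 and DU145, beside 47.1%, 45.3% and 42.2% of all genes tested. With gRNA 10 alone these counts were 5, 3 and 5, and with the first guides alone 3, 5 and 5. Of ANGPTL4 the differences of the effect, as a description, were -1.64 in DU145 against 22Rv1, -0.12 in PC3 against 22Rv1 and 1.53 in PC3 against DU145. Of PLIN2 they were 0.84, 0.93 and 0.09 in the same order.

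HILPDA is a small droplet protein that inhibits the triglyceride lipase PNPLA2 and is a well known HIF target. Its changes were small. In PC3 it lay at 11.9, 12.1 and 11.2 CPM in control, 10.5, 8.72 and 10.1 with gRNA 2 and 8.60, 9.43 and 10.1 with gRNA 10. All 6 RIPK2 libraries were below control, at log2 fold changes of -0.26 ± 0.09 (adjusted p = 0.0122, edgeR) and -0.32 ± 0.09 (adjusted p = 0.00221). Without PC3 gRNA 2 replicate 2 the first was -0.19 (adjusted p = 0.102). In 22Rv1 it stood at 15.4, 15.6 and 16.4 CPM in control, 20.6, 18.4 and 21.3 with gRNA 1 and 13.6, 16.1 and 16.7 with gRNA 10. The gRNA 1 libraries lay above control (0.34 ± 0.11, adjusted p = 0.0283, lost under 6 of 16 alternatives) and the gRNA 10 libraries on both sides of it (-0.03, 95% interval -0.29 to 0.22). In DU145 it stood at 12.3, 9.92 and 11.5 CPM in control, 12.6, 11.2 and 24.8 with gRNA 2 and 9.11, 10.2 and 11.0 with gRNA 10. The value of 24.8 is gRNA 2 replicate 3, the library that stood apart, and the gRNA 2 change of 0.52 (95% interval -0.05 to 1.10, adjusted p = 0.142) was 0.09 without it.

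PDK4, the kinase that shuts pyruvate dehydrogenase when fat is burned, was higher with 22Rv1 gRNA 1 and lower with both PC3 guides. In 22Rv1 it stood at 118, 140 and 110 CPM in control, 212, 206 and 147 with gRNA 1 and 95.4, 99.8 and 96.7 with gRNA 10. The gRNA 1 libraries lay above control and the gRNA 10 libraries below it. The first change was called (0.62 ± 0.14, adjusted p = 0.00465, edgeR) and the second was not (-0.33 ± 0.14, adjusted p = 0.0834), and the guides differed by 0.95 ± 0.14 (adjusted p = 0.000494). Without gRNA 1 replicate 3 the gRNA 10 value was -0.33 with an adjusted p of 0.00291. Genes within 5 Mb of PDK4 (chr7:95583499-95596491, minus strand) had a median log2 fold change of 0.67 with gRNA 1 and 0.52 with gRNA 10 over 82 genes, and the part of that stretch in the PDK4 values was not tested. For HILPDA, on the same chromosome at chr7:128455849-128458418, the 5 Mb medians were 0.48 with 22Rv1 gRNA 1 over 42 genes and -0.53 with PC3 gRNA 2 over 44 genes, likewise not tested. For PLIN4 they were 0.21 and 0.10 in 22Rv1, -0.22 and -0.20 in DU145 and -0.02 and -0.03 in PC3, first guide first. For ACADVL they were 0.07 and -0.03, -0.18 and -0.13, and 0.05 and -0.05 in the same order. The part of these stretches was not tested either.

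In PC3, PDK4 lay at 9.93, 10.1 and 9.73 CPM in control, 7.53, 7.04 and 7.01 with gRNA 2 and 6.77, 7.31 and 6.82 with gRNA 10. Both guides stood below control and overlapped each other, with changes of -0.46 ± 0.09 (adjusted p = 5.82e-05, edgeR) and -0.51 ± 0.09 (adjusted p = 1.16e-05). In DU145 the 9 libraries lay between 4.37 and 8.20 CPM, with values of -0.25 (95% interval -0.67 to 0.17) and 0.17 (-0.25 to 0.58). PDK4 was lower with both guides in the line where PLIN4, PLIN5 and, with gRNA 10, CPT1A were higher.

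CPT1A (chr11:68754620-68844410, minus strand), which makes the acylcarnitines that carry long-chain fatty acids into mitochondria, rose with both guides in 22Rv1. It stood at 53.7, 47.4 and 51.1 CPM in control, 80.7, 79.5 and 84.2 with gRNA 1 and 135, 138 and 137 with gRNA 10. The 3 ranges were separate, with log2 fold changes of 0.68 ± 0.08 (adjusted p = 8.39e-05, edgeR) and 1.43 ± 0.08 (adjusted p = 4.22e-07), and the guides differed by -0.75 ± 0.08 (adjusted p = 6.24e-05). In DU145 it stood at 62.0, 62.5 and 63.3 CPM in control, 29.7, 32.5 and 19.0 with gRNA 2 and 54.8, 51.5 and 52.4 with gRNA 10. Every RIPK2 library lay below control. The gRNA 2 change was called (-1.21 ± 0.16, adjusted p = 0.000391), and the gRNA 10 change was not (-0.24 ± 0.16, adjusted p = 0.240), though without DU145 gRNA 2 replicate 3 its adjusted p was 0.00452. In PC3 the values were 141, 150 and 143 CPM in control, 139, 138 and 139 with gRNA 2 and 241, 224 and 222 with gRNA 10. It rose with gRNA 10 (0.66 ± 0.04, adjusted p = 8.80e-16), and gRNA 2 gave -0.06 (95% interval -0.14 to 0.02). The knockout effect on CPT1A differed between each pair of lines, by -1.78 ± 0.13 in DU145 against 22Rv1 (adjusted p = 5.22e-11), -0.77 ± 0.13 in PC3 against 22Rv1 (adjusted p = 2.63e-05) and 1.01 ± 0.13 in PC3 against DU145 (adjusted p = 8.47e-07).

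ACADVL (chr17:7217125-7225273, plus strand), the very long chain acyl-CoA dehydrogenase that starts each round of oxidation at the inner membrane, fell with both guides in DU145. It went from 588, 573 and 606 CPM in control to 432, 379 and 432 with gRNA 2 and 435, 447 and 437 with gRNA 10. Both guides lay well below control, at -0.51 ± 0.08 (adjusted p = 0.00106, edgeR) and -0.42 ± 0.08 (adjusted p = 0.00199). In 22Rv1 it stood at 337, 312 and 368 CPM in control, 514, 540 and 981 with gRNA 1 and 497, 474 and 487 with gRNA 10. Every RIPK2 library lay above control, and the value of 981 is gRNA 1 replicate 3. The gRNA 1 change was 1.00 ± 0.21 (adjusted p = 0.00265), or 0.63 without that library. The gRNA 10 change was 0.52 ± 0.21 (adjusted p = 0.0661), and without that library its adjusted p was 2.05e-05. In PC3 all 9 libraries lay between 365 and 404 CPM, with values of 0.04 (95% interval -0.03 to 0.11) and -0.05 (-0.12 to 0.02).

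**Figure D3:**
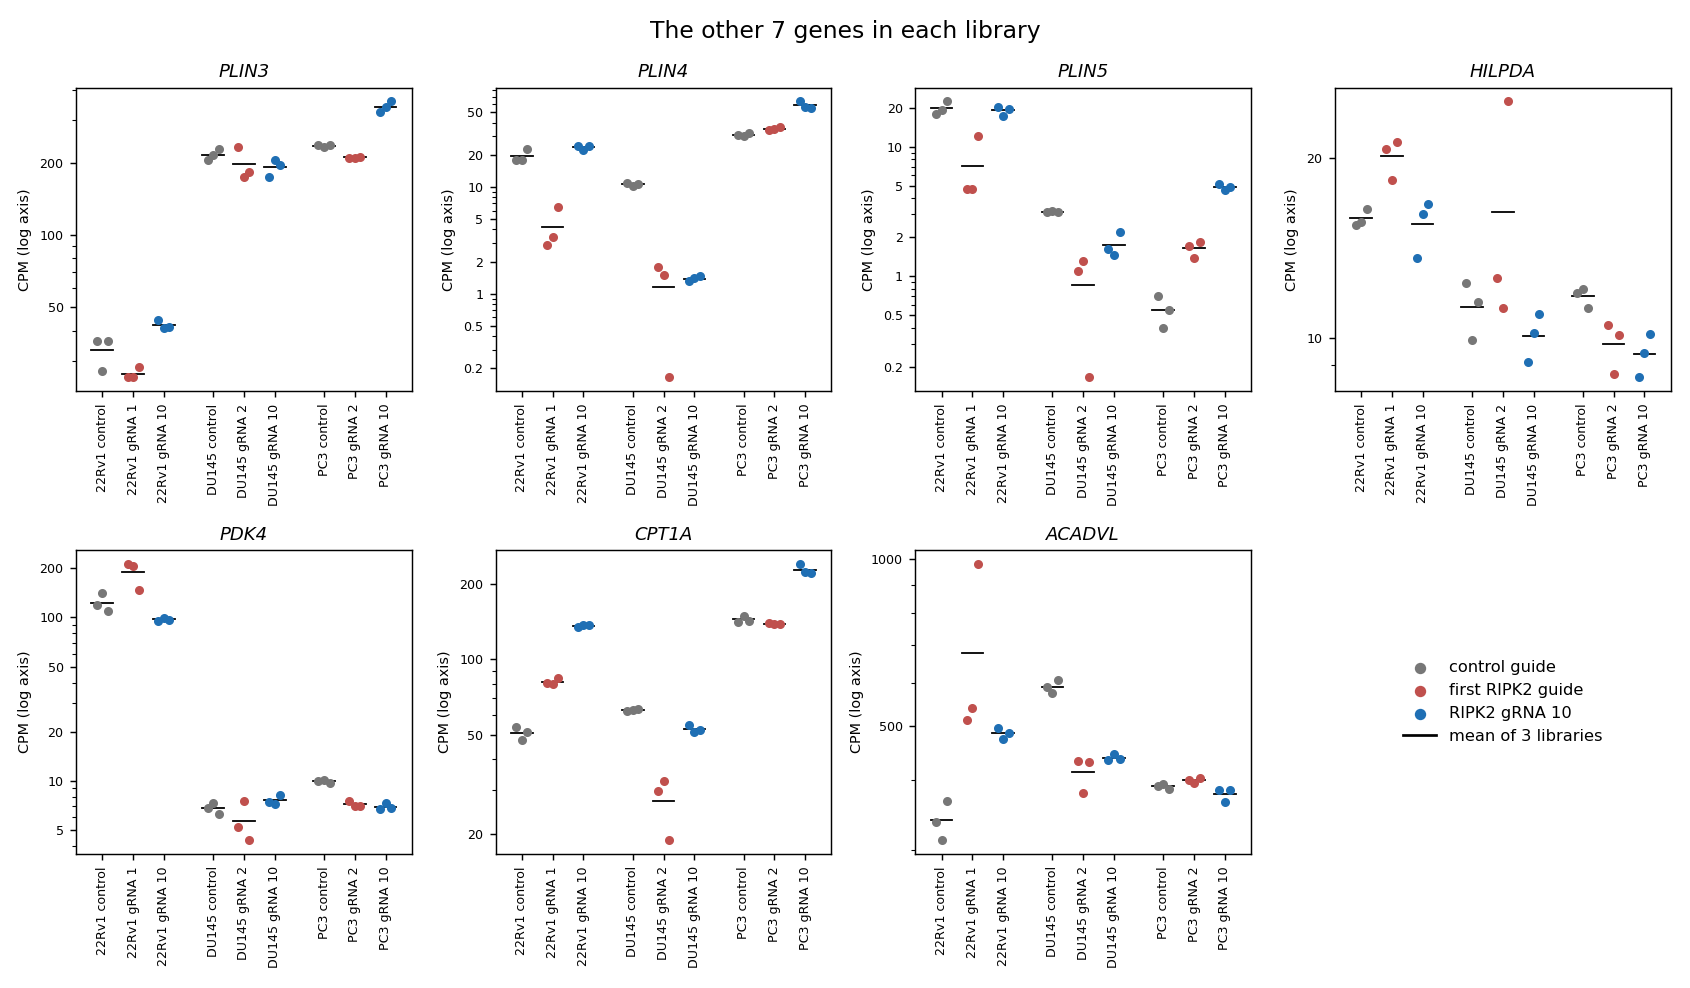
CPM on a log axis of PLIN3, PLIN4, PLIN5, HILPDA, PDK4, CPT1A and ACADVL in each of the 27 libraries, with points for libraries, bars for the mean of 3, grey for control, red for the first RIPK2 guide and blue for gRNA 10. PLIN4 and PLIN5 lie below grey in DU145 and above it in PC3, and the single high red points of HILPDA in DU145 (24.8 CPM) and ACADVL in 22Rv1 (981 CPM) are the libraries that stood apart.

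Of the receptors, PPARA, the fatty acid sensor of oxidative tissues, stood at 49.5, 22.8 and 29.5 CPM in 22Rv1 control, gRNA 1 and gRNA 10, and fell with both guides (-1.12, adjusted p = 0.000282, and -0.75, adjusted p = 0.00352, edgeR). In PC3 it fell with gRNA 2 (-0.56, adjusted p = 1.12e-08) and rose with gRNA 10 (0.22, adjusted p = 0.00184). In DU145 gRNA 2 it was at 17.2 CPM against 29.4 in control (-0.77, adjusted p = 0.0466, a call lost under 9 of 16 alternatives). PPARG, the receptor of fat cell differentiation, stood at 82.9 CPM in the DU145 control, 31.3 with gRNA 2 and 20.1 with gRNA 10, and fell with both (-1.40, adjusted p = 3.06e-06, and -2.04, adjusted p = 1.85e-07). It was at 184, 232 and 177 CPM in PC3, where only the rise with gRNA 2 was called (0.33, adjusted p = 5.25e-09), and in 22Rv1 its group means were at most 0.814 CPM and it was not tested. PPARD, the broadly expressed receptor, rose with DU145 gRNA 2 (1.20, adjusted p = 1.94e-05) and fell with PC3 gRNA 2 (-0.42, adjusted p = 4.07e-11), PC3 gRNA 10 (-0.09, adjusted p = 0.0336) and 22Rv1 gRNA 1 (-0.50, adjusted p = 0.00644). PPARA was called lower with both guides in 22Rv1 and PPARG with both guides in DU145. With PC3 gRNA 10 neither was, while PPARD was slightly lower there (-0.09). The part of receptor levels in the changes of the 9 genes was not tested. Of the 9 tested receptors and partners, 2, 2, 3, 1, 3 and 4 rose and 4, 3, 3, 2, 5 and 3 fell, in the order 22Rv1, DU145, PC3 and first guide before gRNA 10, with median log2 fold changes from -0.30 to 0.06. Of all genes tested, 25.6%, 20.0%, 17.1%, 20.2%, 32.1% and 37.9% rose in the same order. The shares that fell were 22.9%, 20.6%, 17.0%, 19.8%, 31.5% and 35.6%. Named by rule, PPARGC1B, a coactivator, fell with both guides in 22Rv1 (-0.83 and -0.46) and PC3 (-0.30 and -1.27), and RXRA fell in DU145 (-0.46 and -0.39).

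Other PPAR targets moved in both directions in each line, and the counts of this and the following lists stand beside the shares of all genes called in each contrast given above. Of 15 tested in 22Rv1, 2 rose and 5 fell with gRNA 1 and 4 rose and 5 fell with gRNA 10, with medians of -0.11 and -0.05. LPL, the lipoprotein lipase that ANGPTL4 inhibits, was at 236 CPM in the 22Rv1 control, 1.05 with gRNA 1 and 5.07 with gRNA 10, changes of -7.82 (adjusted p = 2.82e-09, edgeR) and -5.54 (adjusted p = 9.21e-09). Its group means were at most 0.684 CPM in DU145 and 0.0166 in PC3. ACSL1, which activates fatty acids to acyl-CoA, fell as well in 22Rv1 (-2.19 and -1.60), while VLDLR, a lipoprotein receptor, rose there (1.59 and 1.03). In DU145, 3 of 14 rose and 2 fell with gRNA 2 and 7 rose and 2 fell with gRNA 10, with medians of -0.03 and 0.32. UCP2, a mitochondrial carrier, rose (0.80 and 1.26) and NR1H3, the oxysterol receptor, fell (-0.80 and -0.77). In PC3, 6 of 15 rose and 5 fell with gRNA 2 and 4 rose and 8 fell with gRNA 10, with medians of 0.27 and -0.17. UCP2 rose there too (0.74 and 2.24), ACSL5 fell (-1.85 and -2.03), and the peroxisomal thiolase ACAA1 rose (0.49 and 0.38).

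Of 19 other genes of mitochondrial fatty acid oxidation, 7 rose and 1 fell with 22Rv1 gRNA 1 and 4 rose and 1 fell with gRNA 10. In DU145, 1 rose and 5 fell of 18 with gRNA 2 and 3 rose and 6 fell with gRNA 10. In PC3, 5 rose and 9 fell of 19 with gRNA 2 and 4 rose and 12 fell with gRNA 10. Medians were 0.08 and 0.14, -0.06 and -0.15, and -0.06 and -0.25. HADHB, of the trifunctional protein, rose in 22Rv1 (0.63 and 0.60). The thiolase ACAA2 fell in DU145 (-0.84 and -0.56), and ACADS, for short chains, fell in PC3 (-0.75 and -0.85), where CPT2, the inner-membrane partner of CPT1A, rose (0.74 and 0.73). ACADL, for long chains, fell in PC3 from 2.09 CPM to 0.164 and 0.353 (-3.62 and -2.54). In DU145 its control libraries were at or under 3 counts, and its level was above that floor by at least 7.24-fold (gRNA 2) and 4.73-fold (gRNA 10).

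Of the genes that build and empty droplets, 3 rose and 7 fell of 21 with 22Rv1 gRNA 1 and 6 rose and 3 fell with gRNA 10. DGAT2, the last enzyme of triglyceride synthesis, fell (-1.81 and -0.55), SOAT1, which esterifies cholesterol, fell (-1.31 and -0.54), and AGPAT2 rose (1.36 and 1.17). In DU145, 2 rose and 4 fell of 20 with gRNA 2 and 7 rose and 6 fell with gRNA 10, and GPAT3 (-0.64 and -1.45) and the lipase PNPLA2 (-0.52 and -0.88) fell with both. In PC3, 10 rose and 8 fell of 23 with gRNA 2 and 11 rose and 7 fell with gRNA 10. G0S2, an inhibitor of PNPLA2, went from 8.28 CPM to 123 and 17.3 (3.89, adjusted p = 6.47e-30, and 1.06, adjusted p = 1.28e-13, edgeR), and CIDEC, a droplet fusion protein, from 0.365 to 0.986 and 2.55 (1.42 and 2.79). Medians of this list lay between -0.01 and 0.18. Of the lipases and uptake proteins, 4, 3, 1, 1, 2 and 4 rose and 2, 2, 2, 0, 2 and 4 fell, of 10 tested in 22Rv1 and 8 in the others, with medians from -0.07 to 0.15. The acyl-CoA synthetase SLC27A3 rose in 22Rv1 (1.71 and 1.42) and PC3 (1.10 and 1.46), and LIPG, endothelial lipase, rose in DU145 (1.43 and 1.16). Of the 9 genes of the pyruvate dehydrogenase complex and its control other than PDK4, 2, 2, 1, 2, 4 and 3 rose and 5, 2, 1, 2, 2 and 6 fell, with medians from -0.29 to 0.05. PDHX fell in 22Rv1 (-0.83 and -0.72) and PC3 (-0.46 and -0.17), and DLAT rose in 22Rv1 (0.89 and 0.94).

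Among hypoxia targets outside the set, most called genes were lower in PC3 and higher in DU145, while ANGPTL4 and PLIN2 were lower in both. In PC3, 3 of 24 rose and 15 fell with gRNA 2, and 5 rose and 16 fell with gRNA 10, with medians of -0.56 and -0.57. NDRG1 went from 405 CPM to 211 and 120 (-0.94 and -1.75), and BNIP3, which tags mitochondria for removal, from 139 to 75.6 and 62.8 (-0.88 and -1.15). In DU145, 9 rose and 0 fell with gRNA 2, and 9 rose and 3 fell with gRNA 10, with medians of 0.44 and 0.28. The oxygen-sensing hydroxylase EGLN3 rose there from 9.99 CPM to 23.7 and 20.0 (1.25 and 1.00), and the demethylase KDM3A rose (0.75 and 0.95). In 22Rv1, 4 rose and 10 fell with gRNA 1, and 6 rose and 5 fell with gRNA 10, with medians of -0.26 and -0.02. VEGFA (1.17 and 0.93) and ENO2 (2.10 and 0.72) rose with both guides, and MXI1 fell (-0.67 and -0.55). Glucocorticoids also raise ANGPTL4 and PDK4. Of that list 0 rose and 5 fell of 8 with each guide in 22Rv1 (medians -0.63 and -0.50), including KLF9 (-2.45 and -1.35) and ZBTB16 (-1.44 and -1.07). In DU145, 1 rose and 1 fell of 7 with gRNA 2 and 3 rose and 0 fell with gRNA 10 (0.09 and 0.28). In PC3, 5 rose and 1 fell of 7 and 4 rose and 1 fell (0.34 and 0.32), including rises of SGK1 (0.83 and 0.59) and TSC22D3 (0.56 and 0.64).

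**Figure D4:**
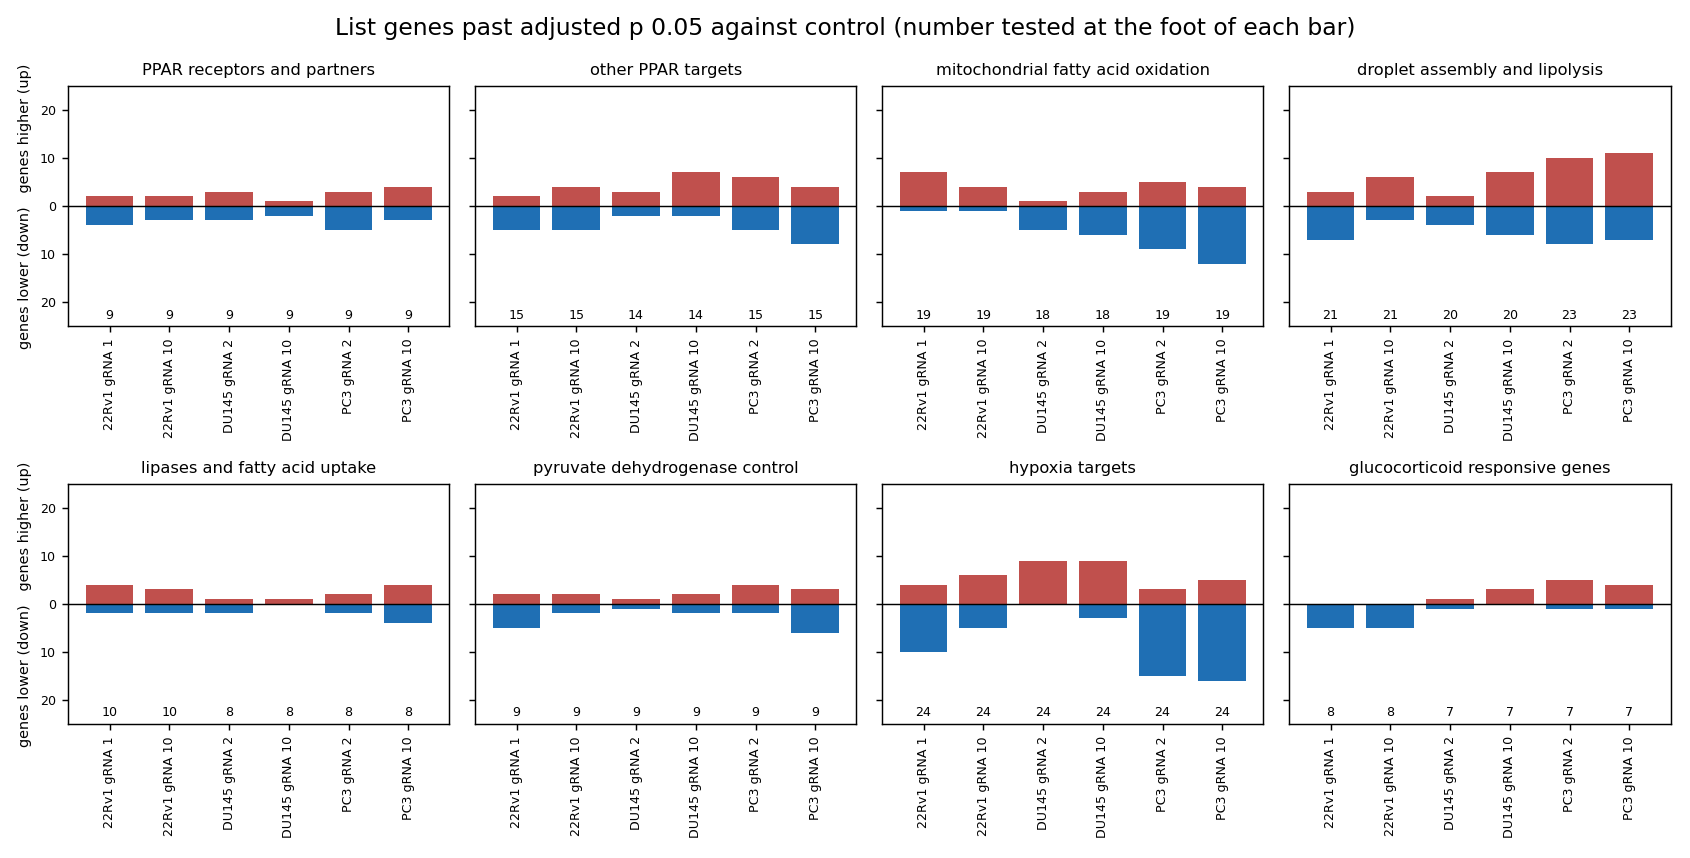
Number of genes of each of 8 lists that were higher (red, up) or lower (blue, down) than control at an adjusted p below 0.05, for each RIPK2 guide, with the number tested under each bar. For hypoxia targets the bars point mostly up in DU145 (9 higher with each guide, 0 and 3 lower) and mostly down in PC3 (15 and 16 lower, 3 and 5 higher), and for glucocorticoid responsive genes they point only down in 22Rv1 (5 and 5).

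Without replicate 3 of 22Rv1 gRNA 1, the log2 fold changes against control with that guide were -2.33 for PLIN2, -0.38 for PLIN3, -2.64 for PLIN4, 0.76 for PDK4, 0.65 for CPT1A and 0.29 for HILPDA, and the count of the 7 genes called with gRNA 10 went from 2 to 5. Without replicate 3 of DU145 gRNA 2, those with that guide were -0.66 for PLIN2, -0.08 for PLIN3, -1.37 for PLIN5, -0.09 for PDK4, -1.004 for CPT1A and -0.53 for ACADVL, and the count with gRNA 10 went from 2 to 4. PLIN2 then differed between the DU145 guides by 0.25 (adjusted p = 0.0392, edgeR). The lists held more called genes without these libraries. The share of all genes called in these refits was not computed. Whether the lists or the 7 genes gained more calls than other genes is therefore not known. In 22Rv1 gRNA 10, fatty acid oxidation went to 9 higher and 4 lower, droplet genes to 8 and 7 and hypoxia targets to 10 and 8. In DU145, hypoxia targets went to 11 higher and 5 lower with gRNA 2 and 16 and 4 with gRNA 10, and glucocorticoid responsive genes to 4 and 1 and to 4 and 2.

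No gene of the 8 lists was called in one direction in all 6 contrasts. Few genes were: of 12800 tested in all 6, 26 were called lower and 16 higher throughout. The lack of such a gene in the lists therefore says little about them. Outside the set, ANKLE1 (-3.79 to -1.27), SGK2 (-2.87 to -0.69), PTPRG (-3.99 to -0.54) and SLC12A8 (-1.59 to -0.50) were called lower in all 6 with a log2 fold change of -0.5 or less in each, out of 12800 genes tested in all 6. They were chosen after their values were seen.

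Likeness to ANGPTL4 and PLIN2 was ranked by Pearson's r over the 27 libraries with line means removed, in which the low values of both genes are those that chose the set. Of 11197 genes compared, those most like ANGPTL4 were CIART (0.90), PRDM11 (0.85), WWOX (0.84), TCF7L2 (0.84) and ARID1B (0.84). Those most like PLIN2 were STIM1 (0.91), THRB (0.91), GJA1 (0.91), SLC25A43 (0.90) and RASSF3 (0.89). ANGPTL4 correlated with PLIN4 at 0.633 within 22Rv1 and 0.740 within DU145 but at -0.955 within PC3, where its highest libraries were the controls and those of PLIN4 the gRNA 10 cells. All these values describe libraries that share guides and line, and carry no p.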

How the data were processed

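The 27 libraries, 9 per line, were grouped by their sample titles, which also give the replicate numbers. Per the labels' protocols, RNA was isolated with an RNeasy kit and read as strand-specific mRNA libraries in paired ends on a DNBSEQ instrument. The authors deposited raw read counts, 1 table per line with a row per gene symbol, per the file headers. The submitters' processing notes name hg38, STAR, FastQC and edgeR, with no versions. The counting program, annotation and strand setting are not given in the sources used here.

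Counts were tested as deposited with edgeR 4.0.16 (R 4.3.3): filterByExpr (minimum count 10, minimum total 15), which left 15198, 14908 and 14718 genes in 22Rv1, DU145 and PC3, TMM scaling, the 9 libraries of a line in one fit with group as the only term, and the robust, two-sided quasi-likelihood test with Benjamini-Hochberg adjustment over all genes at 0.05. Symbols listed more than once were summed. Differences between lines came from one model of all 27 libraries. The 95% intervals of log2 fold changes use the t quantile of the test's degrees of freedom. Intervals and the floor of 3 counts cover counting and replicate error as stated, not molecules.

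The members and lists were chosen with earlier results of these data known. The text names the 9 members, RIPK2, the 3 PPARs and genes picked per list and line by rule: at most 2 rises and 2 falls called with both guides, those with the largest smaller change, not all of which are printed. Genes most like a member were ranked by Pearson correlation of line-centred log2 CPM. Alternatives were RLE factors, DESeq2 1.42.0, other filters, only the libraries compared, a replicate block, mitochondrial counts left out, each library left out and, chosen after seeing the data, each guide alone for differences between lines.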

Additional observations from a re-analysis of the deposited data

Results flagged for a closer look

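The change with RIPK2 guides (the mean of both minus control) differed between lines for 6 of the 7 tested genes, counting any pair of lines. The edgeR model of all 27 libraries was used. For single pairs, 47.1% of all genes tested differed in DU145 against 22Rv1, 45.3% in PC3 against 22Rv1 and 42.2% in PC3 against DU145. The share of all genes that differed in any pair was not computed, so 6 of 7 cannot be set against it. Differences of log2 fold changes are given as the line named first minus the other. PLIN4 differed by 3.57 in PC3 against DU145, 1.50 in PC3 against 22Rv1 and -2.07 in DU145 against 22Rv1. PLIN5 differed by 3.68 in PC3 against DU145 and 3.12 in PC3 against 22Rv1. CPT1A differed by 1.01 in PC3 against DU145, -0.77 in PC3 against 22Rv1 and -1.78 in DU145 against 22Rv1.

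ACADVL differed by 0.44 in PC3 against DU145 (adjusted p = 0.0408, lost under 8 of 20 alternatives), -0.78 in PC3 against 22Rv1 and -1.22 in DU145 against 22Rv1. PDK4 differed by -0.47 in PC3 against DU145 (adjusted p = 0.0455, lost under 11 of 20 alternatives) and -0.65 in PC3 against 22Rv1. The latter PDK4 difference was -1.08 with the first guides alone (adjusted p = 5.23e-05, edgeR) and -0.21 with gRNA 10 alone (adjusted p = 0.379). PLIN3 differed by 0.32 in PC3 against DU145 (adjusted p = 0.0366, lost under 6 of 20 alternatives, and -0.036 with the first guides alone). HILPDA gave no called difference between lines, with 95% intervals of -0.93 to -0.0015 in PC3 against 22Rv1 and -0.96 to -0.02 in PC3 against DU145 and adjusted p-values of 0.0961 and 0.0843.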

How the results depend on the processing

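Of the members' log2 fold changes under an alternative, 2060 kept direction and call, 68 lost a call, 35 gained one, 3 values moved and 15 changed sign. For genes named from the lists the numbers were 2216, 67, 8, 0 and 0. ANGPTL4 and PLIN2 stayed below control in each alternative run. Shares of all genes called were not computed under the alternatives, so the counts below have no background beside them. The number of the 7 genes called with 22Rv1 gRNA 10 was 1 without a filter, 5 with only the libraries compared and 1 to 5 when a library was left out. With DU145 gRNA 2 it was 2 at 10 or more counts in every library. With DU145 gRNA 10 it was 1 at that filter, 5 with only the libraries compared and 2 to 4 when a library was left out. Between DU145 guides it was 1 of 9 with only the libraries compared and 1 to 5 when a library was left out. The knockout effect differed for 3 genes in PC3 against 22Rv1 and for 3 in PC3 against DU145 at 10 or more counts in every library, where PLIN4 or PLIN5 were not tested, and for 3 to 7 in PC3 against DU145 when a library was left out.

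Members whose sign changed were these. When a library was left out, PLIN5 with 22Rv1 gRNA 10 ranged from -0.13 to 0.033, HILPDA with 22Rv1 gRNA 10 from -0.092 to 0.057, PLIN3 and PLIN4 between DU145 guides from -0.10 to 0.12 and -0.67 to 0.25, HILPDA between PC3 guides from -0.0025 to 0.14 and the HILPDA effect in DU145 against 22Rv1 from -0.19 to 0.13, which was -0.018 at 10 or more counts in every library. With gRNA 10 alone the knockout effect differed for 5 genes in DU145 against 22Rv1 and for 3 in PC3 against 22Rv1, the PDK4 difference in DU145 against 22Rv1 was 0.49 (adjusted p = 0.0436, edgeR) against -0.18 with both guides, and that of HILPDA was -0.13. With the first guides alone the PDK4 difference in DU145 against 22Rv1 was -0.85 (adjusted p = 0.00103, edgeR), a call opposite to that with gRNA 10. The PLIN3 difference with the first guides alone was 0.20 in DU145 against 22Rv1 and -0.036 in PC3 against DU145. The cause was not tested. With the replicate block, ACADVL with 22Rv1 gRNA 10 gave 0.53 (adjusted p = 0.0247, edgeR). Libraries with the same number in their titles showed little sign of pairing, with 1 of 27 such pairs above 0.1 in the correlation of deviations. The block by these numbers moved no count of members by over 1.5 times. Some library names carry other numbers than the titles, and pairing by those was not tested. Low counts limit PLIN5 in PC3 and PLIN4 and PLIN5 in DU145.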
